A study of Homo sapiens with 12 samples.

Results

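PAPPA, the proteins that bind insulin-like growth factors, and the receptors for those factors were read in MDA-MB-231, an established human breast cancer line of mesenchymal character that was derived from a metastatic tumour. The members are 10 genes, PAPPA, STC2, IGFBP2, IGFBP3, IGFBP4, IGFBP5, IGFBP6, IGFBP7, IGF1R and IGF2R. They comprise every probe set that the platform annotation assigns to a single one of these symbols, which gave 35 of the 54675 probe sets on the array, and 10 of 19775 genes. The family was chosen by its known roles and with the higher PAPPA signal of the Sharp1 cells already seen. Values of the members in Sharp1 cells are therefore given as a description, with no test of a single member. Tests of the members are given for the HIF-depleted cells only. The choice is not known to rest on that comparison, but its results were also known by then. It also shares the control arrays with the Sharp1 comparison, so its p-values are not independent of the choice.

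The 3 groups held 4 replicate arrays each, lettered A to D. Control cells (shGFP) carried a retroviral construct with a hairpin against GFP, and shHIF cells carried retroviral hairpins against HIF1a and HIF2a, the oxygen-regulated transcription factor subunits encoded by HIF1A and EPAS1. Sharp1 cells overexpressed Sharp1, the transcriptional repressor encoded by BHLHE41. The sources used here do not give their vector, so the hairpin control was the comparison for both. All groups were grown in the same serum-containing medium under normal conditions with no treatment. The labels call the replicates biological without naming separate cultures or infections, so a p-value reads no more than the spread among these 12 arrays.

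Insulin-like growth factors circulate and lie in tissue bound to IGF-binding proteins, which keep them from their receptors. PAPPA is a secreted metalloprotease that cleaves IGFBP4 and IGFBP5 and so releases the growth factor, and the stanniocalcins STC1 and STC2 bind PAPPA and block it. IGF1R is the signalling tyrosine kinase receptor, whereas IGF2R, the mannose 6-phosphate receptor, takes up IGF2 for breakdown in lysosomes. These are transcript levels, and protein, cleavage and free growth factor were not measured.

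Values are log2 expression, so a difference of 1 is a 2-fold change, and a level is compared only within a probe set. The median probe set read 5.41. Array medians lay between 5.38 and 5.44. The lowest correlation within a group was 0.996 and the highest between groups 0.995. Spike-in transcripts read 8.63 on shHIF arrays A and D and 8.74 to 9.11 elsewhere, and the ribosomal RNA probe sets averaged 12.2 on array B of Sharp1 and 13.1 to 13.5 elsewhere. Sharp1 array B was the lowest array of its group for 13 of the 19 member probe sets above the median, against 34.3% of all such probe sets, so results are also given without it. On its 223185_s_at probe set BHLHE41 read 3.89 ± 0.07 (SD, n = 4) in control and 9.24 ± 0.29 in Sharp1 cells, whereas its probe set 221530_s_at read 6.62 and 4.56. EPAS1 read 9.53 ± 0.06 in control, 6.68 ± 0.19 in shHIF and 8.82 ± 0.02 in Sharp1 cells, and HIF1A read 12.78, 12.05 and 12.87. All 6 markers of the line stood above the median, from EGFR at 10.8 to VIM at 14.4. Of the luminal markers 3 of 5 also stood above it, GATA3 at 8.61, ERBB3 at 6.60 and ESR1 at 6.34, while PGR (3.48) and CDH1 (4.01) stood below. Of the fibroblast markers 3 of 6 stood above the median, in a range from LUM at 3.59 to COL1A1 at 7.51. Of the endothelial markers 3 of 4 did, in a range from CDH5 at 3.20 to PECAM1 at 6.73, and of the leukocyte markers 0 of 3.

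Promoter windows from RefSeq (GRCh38.p14), the 250 bases before the gene's start, were given for 9 of the 10 members, in 11 windows. They were searched on both strands for CACGTG, the E-box of the class that Sharp1-type repressors bind, and for ACGTG and GCGTG, which are the variants of the core of the HIF response element. Each CACGTG also holds an ACGTG on each strand. CACGTG stood in the window of 1 member, IGF2R, with 3 copies whose first letters lie 132, 74 and 28 bases before the start. Of 35116 promoter windows of this length 6.34% held CACGTG and 0.0797% held at least 3. ACGTG was found in 2 members (IGF2R and IGF1R) and in 18.5% of windows, and GCGTG in 4 members (STC2, IGFBP2, IGFBP3 and IGF1R) and in 32.2% of windows. The window of PAPPA, chr9:116153541-116153790 on the plus strand, is shown because PAPPA differed most between groups among the members; none of the motifs occurs in it, which says only that these letters are not in this stretch. The window of IGFBP3, chr7:45921273-45921522 on the minus strand, is shown because IGFBP3 had the largest change among the members in HIF-depleted cells. That of IGF2R, chr6:159968832-159969081 on the plus strand, is shown for its E-boxes. All are written 5′ to 3′ and end at the base before the start, with motif matches on either strand in capitals. A match is a string of letters, and binding was not measured here.
PAPPA: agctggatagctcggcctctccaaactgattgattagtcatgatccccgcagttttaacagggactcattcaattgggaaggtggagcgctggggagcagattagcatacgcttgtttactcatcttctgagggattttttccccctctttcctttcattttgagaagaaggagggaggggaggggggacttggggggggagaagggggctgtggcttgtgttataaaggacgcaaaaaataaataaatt
IGFBP3: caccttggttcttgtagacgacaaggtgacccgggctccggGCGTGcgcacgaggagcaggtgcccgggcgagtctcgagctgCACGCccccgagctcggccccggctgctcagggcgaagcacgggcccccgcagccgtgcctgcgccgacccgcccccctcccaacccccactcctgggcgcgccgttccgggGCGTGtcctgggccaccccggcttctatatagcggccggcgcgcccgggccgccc
IGF2R: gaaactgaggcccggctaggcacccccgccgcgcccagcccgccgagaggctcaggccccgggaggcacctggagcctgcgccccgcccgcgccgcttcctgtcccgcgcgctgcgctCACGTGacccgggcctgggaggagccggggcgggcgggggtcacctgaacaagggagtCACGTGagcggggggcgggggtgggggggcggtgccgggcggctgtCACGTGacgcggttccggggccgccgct

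PAPPA transcript was highest in Sharp1 cells, intermediate in control cells and lowest in HIF-depleted cells. On its brightest probe set, 228128_x_at, the control arrays A to D read 6.84, 7.10, 6.90 and 7.08. The shHIF arrays read 6.56, 6.42, 6.74 and 6.30, and the Sharp1 arrays read 9.49, 9.16, 9.40 and 9.43. No value of 1 group reached into another: every shHIF array lay below every control array and every Sharp1 array above. Depletion of the HIF subunits lowered this PAPPA signal by a log2 difference of -0.48 (SE 0.09; limma, adjusted p = 0.000319, n = 4 and 4), which leaves 71.8% of the control level. Sharp1 cells read higher than control by 2.39 (SE 0.09), which is 5.22-fold, and higher than shHIF cells by 2.86, which is 7.28-fold. As the arrays read bulk RNA, fewer cells with the transcript and less of it in each cell cannot be told apart.

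The gene has 11 probe sets, of which 7 have a mean above the median probe set. In HIF-depleted cells 3 of the 11 were called lower at an adjusted p under 0.05 and 0 higher (limma, adjusted over 54613 probe sets). The other called probe sets were 224940_s_at (difference -0.48, SE 0.08, adjusted p = 0.000101) and 224941_at (-0.57, SE 0.10, adjusted p = 8.22e-05). In contrast 201981_at differed by -0.22 (SE 0.11, adjusted p = 0.145), 224942_at by -0.15 (adjusted p = 0.488) and 1559400_s_at by -0.25 (adjusted p = 0.171), all short of the threshold. Probe set 201982_s_at differed by 0.01 (adjusted p = 0.964). Of the 3 called probe sets, 228128_x_at and 224940_s_at have endings that mark probes able to bind related transcripts, and 224941_at does not. The brightest PAPPA probe set without such an ending is 201981_at, and a reading of PAPPA by that probe set loses the call. Without shHIF arrays A and D together, those with the low spike-in signal, 228128_x_at differed by -0.40 (adjusted p = 0.00712).

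In Sharp1 cells the PAPPA probe sets differed from each other in size. The mean of 224940_s_at went from 6.73 ± 0.06 (SD, n = 4) in control to 9.16 ± 0.06, a 5.4-fold difference. Probe sets 224941_at, 224942_at and 201981_at read 4.65-fold, 4.14-fold and 3.99-fold higher. Below these, 1559400_s_at read 2.29-fold and 201982_s_at 1.32-fold higher. The last 2 stood at 5.98 and 5.38 in control, near the median probe set. Of the 4 dim probe sets 232748_at read 3.30 in control and 3.70 in Sharp1 cells with overlapping groups. In the other direction 1558607_at read 4.88 and 4.59, with every Sharp1 array below every control array. Probe sets 1559928_at and 1558608_a_at differed by less than 0.2. On 224942_at Sharp1 array B read 7.50 and the other Sharp1 arrays 8.13 to 8.16. Without that array the 228128_x_at difference was 2.46.

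**Figure D1:**
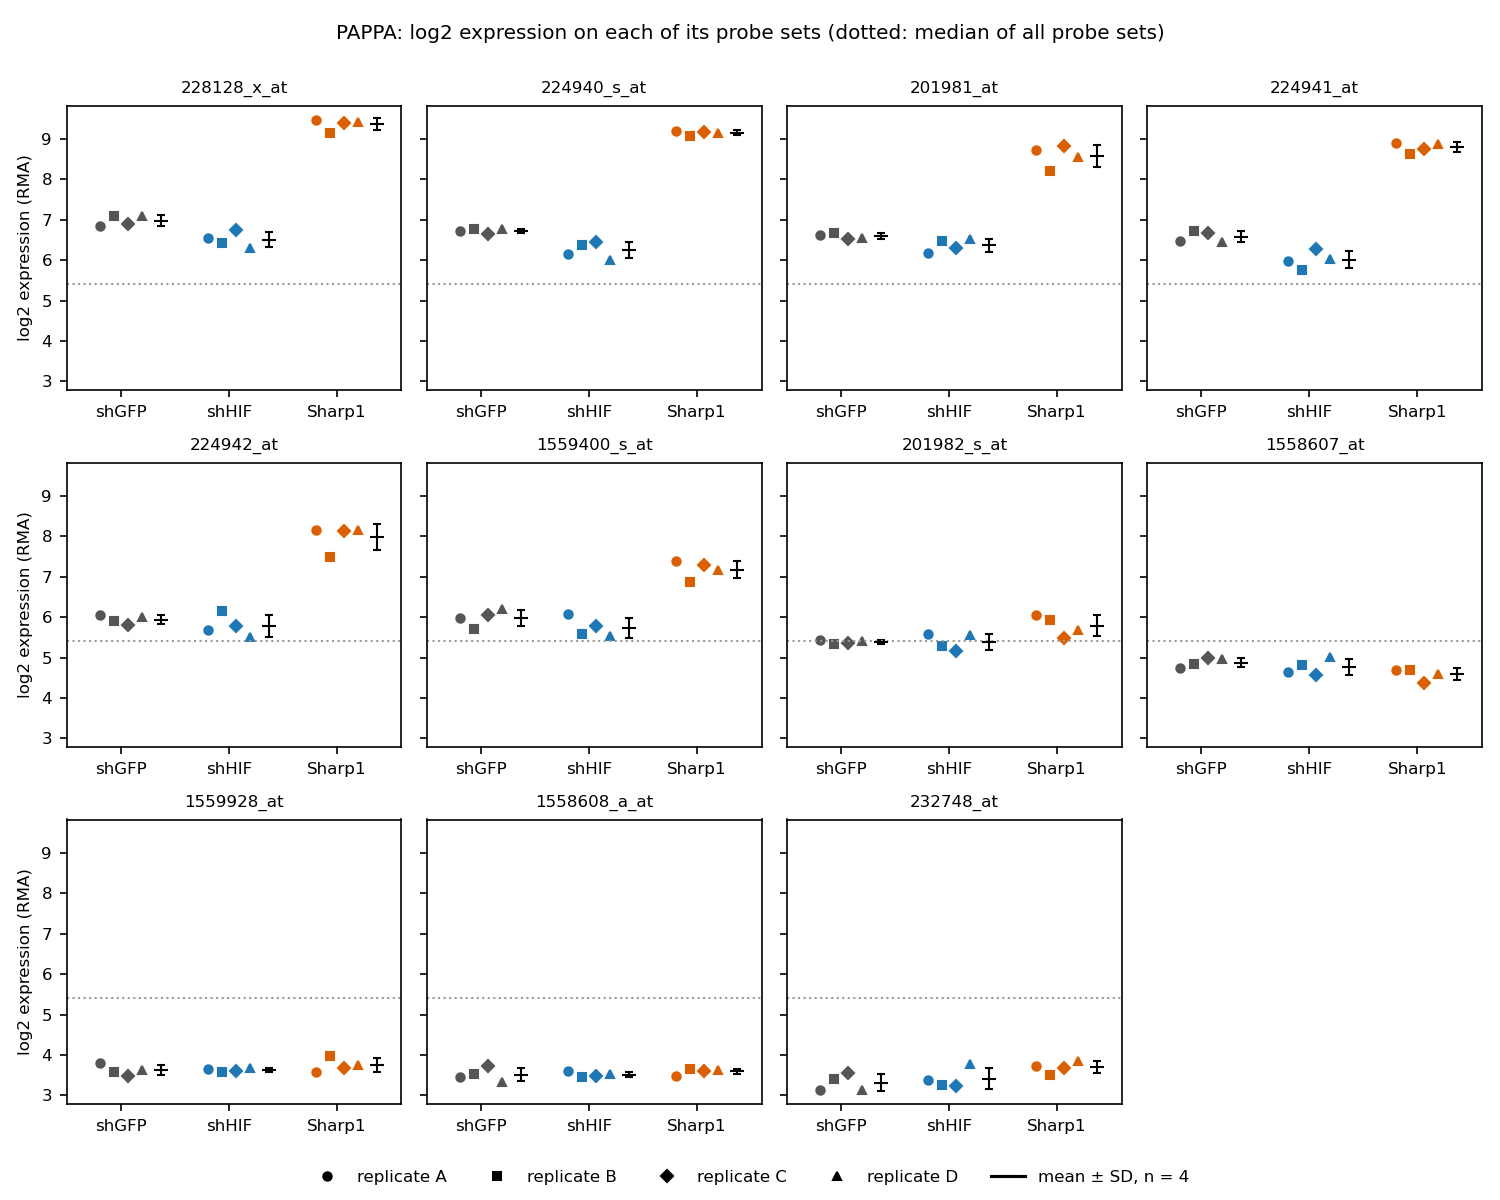
Log2 expression of PAPPA on each of its 11 probe sets (vertical axis, one panel per probe set) in the shGFP, shHIF and Sharp1 groups, with a symbol per replicate array, the mean ± SD beside them and the median of all probe sets dotted. Sharp1 arrays stand above all others on the 6 brightest probe sets, with means from 7.18 to 9.37. On the dim 1558607_at they lie below control, and the other dim panels show little separation.

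STC2, a stanniocalcin that inhibits PAPPA, was dim in all groups. Its brighter probe set, 203439_s_at, read 5.20 ± 0.10 (SD, n = 4) in control, 5.11 ± 0.07 in shHIF and 5.02 ± 0.07 in Sharp1 cells, below the median probe set. The shHIF difference was -0.09 (SE 0.09; limma, adjusted p = 0.578). On the other probe set, 203438_at, the difference was 0.14 (adjusted p = 0.47). The Sharp1 differences were -0.17 and -0.04.

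STC1, the paralogue of STC2 and also an inhibitor of PAPPA, is no member and stood above the median probe set. On 204595_s_at the control arrays read 8.51, 8.36, 8.39 and 8.47, the shHIF arrays 9.44, 9.38, 9.30 and 9.45, and the Sharp1 arrays 7.41, 6.91, 7.40 and 7.47. The 3 groups were apart, in the reverse order of PAPPA. STC1 rose by 0.96 in HIF-depleted cells (SE 0.09; limma, adjusted p = 1.54e-08), a 1.95-fold rise. In Sharp1 cells it fell by 1.14 (SE 0.09, adjusted p = 5.85e-10), to 45.5% of control. All 3 STC1 probe sets were called in the same directions. The comparisons share the control arrays, and the relation of STC1 to PAPPA was not tested.

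IGFBP3, the main carrier of IGF in serum, fell in HIF-depleted cells and read higher in Sharp1 cells. On 210095_s_at the control arrays read 10.76, 10.64, 10.64 and 10.65. The shHIF arrays read 9.81, 9.84, 9.79 and 9.93, and the Sharp1 arrays 11.35, 11.33, 11.37 and 11.33. The groups were wholly apart, with SDs of at most 0.06. The shHIF difference was -0.83 (SE 0.04; limma, adjusted p = 8.05e-13), which leaves 56.2% of the control level. Its other probe set, 212143_s_at, fell by 0.92 (SE 0.07, adjusted p = 8.44e-10). In Sharp1 cells these 2 read 1.59-fold and 1.56-fold higher than control, and Sharp1 cells exceeded shHIF cells 2.83-fold and 2.96-fold. Both IGFBP3 identifiers end in _s_at, so no other probe set of IGFBP3 checks them. On chromosome 7 IGFBP3 lies next to IGFBP1, which encodes another binding protein and is no member. On 205302_at IGFBP1 fell by 0.74 in HIF-depleted cells (SE 0.05, adjusted p = 2.01e-10), from 11.84 ± 0.04 to 11.10 ± 0.15 (SD, n = 4). In Sharp1 cells this probe set differed from control by 0.14 (SE 0.05, adjusted p = 0.0589), with every Sharp1 array above control. Of the 2 IGFBP1 probe sets 1 was called lower in HIF-depleted cells.

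IGFBP4, the substrate by which PAPPA is best known, was lower in both altered groups. The control arrays of 201508_at read 11.38, 11.26, 11.41 and 11.37, the shHIF arrays 10.79, 10.80, 10.85 and 10.99, and the Sharp1 arrays 10.19, 9.73, 10.35 and 10.22. Control was highest, shHIF intermediate and Sharp1 lowest, and the groups did not overlap. HIF depletion lowered IGFBP4 by 0.50 on the log2 scale (difference -0.50, SE 0.08; limma, adjusted p = 6.63e-05), to 70.8% of control. Sharp1 cells read lower than control by 1.23 (difference -1.23, SE 0.08), at 42.6% of its level, and lower than shHIF cells by a difference of -0.73. Without Sharp1 array B, the lowest of its group, the Sharp1 difference was -1.10. Against control, PAPPA and IGFBP4 both read lower in shHIF cells, whereas in Sharp1 cells PAPPA read higher and IGFBP4 lower.

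IGFBP5, the other PAPPA substrate among the members, has 6 probe sets that did not behave alike. Its brightest, 203425_s_at, read 5.82, 5.94 and 5.91 in the control, shHIF and Sharp1 groups. In HIF-depleted cells none of the 6 was called, with adjusted p from 0.451 to 0.938 (limma), and 0 of the 6 had an unadjusted p under 0.05. In Sharp1 cells the 6 differences from control ran from 0.09 to 1.36. On 211959_at, which differed most, the control arrays read 3.15, 3.36, 3.19 and 3.14, the shHIF mean was 3.14 ± 0.09 (SD, n = 4), and the Sharp1 arrays read 4.56, 4.75, 4.27 and 4.68. That is a 2.56-fold difference from control with no overlap, at a level below the median probe set. The next in size, 1555997_s_at, read 2.84 in control and 3.33 in Sharp1 cells. IGFBP2 lies next to IGFBP5 on chromosome 2 and was dim. Its probe set 202718_at read 4.66 ± 0.07, 4.67 ± 0.16 and 4.57 ± 0.07, with a shHIF difference of 0.01 (SE 0.10, adjusted p = 0.968).

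IGFBP6, which prefers IGF2 over IGF1, was not called in HIF-depleted cells. The control arrays of 203851_at read 8.91, 8.81, 8.88 and 9.19, the shHIF arrays 8.63, 8.96, 8.86 and 8.78, and the Sharp1 arrays 8.95, 8.99, 9.12 and 9.04. The 3 ranges overlapped. The shHIF difference was -0.14 (SE 0.07; limma, adjusted p = 0.213) and the Sharp1 difference from control was 0.08.

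IGFBP7, a secreted protein of low affinity for IGF, gave a strong signal on 201162_at and 201163_s_at and a weak one on 213910_at. On 201162_at the control arrays read 12.59, 12.59, 12.63 and 12.69, the shHIF arrays 12.57, 12.60, 12.54 and 12.55, and the Sharp1 arrays 12.78, 12.85, 12.84 and 12.79. Sharp1 arrays were above control by 0.19 (SE 0.03), which is 1.14-fold, while control and shHIF overlapped (difference -0.06, SE 0.03; limma, adjusted p = 0.189). Probe set 201163_s_at differed by -0.12 in shHIF (adjusted p = 0.462), and there shHIF array D read 11.69 against 12.36 to 12.48 on the other 3. The dim probe set 213910_at gave another picture, at 5.35 ± 0.04 (SD, n = 4) in control. Its shHIF arrays read 4.82, 4.68, 4.63 and 4.51, all below control, and the difference was -0.69 (SE 0.10, adjusted p = 1.24e-05). The IGFBP7 probe sets thus disagree on a fall in HIF-depleted cells. Endothelial cells are a known source of IGFBP7. Of the 4 endothelial markers 1 was called higher in shHIF cells (TIE1) and 1 lower in Sharp1 cells (PECAM1). The log2 of their summed signal ran from 7.76 to 7.89 in control, 7.79 to 8.05 in shHIF and 7.62 to 7.71 in Sharp1 cells, and its part in the IGFBP7 values was not tested.

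**Figure D2:**
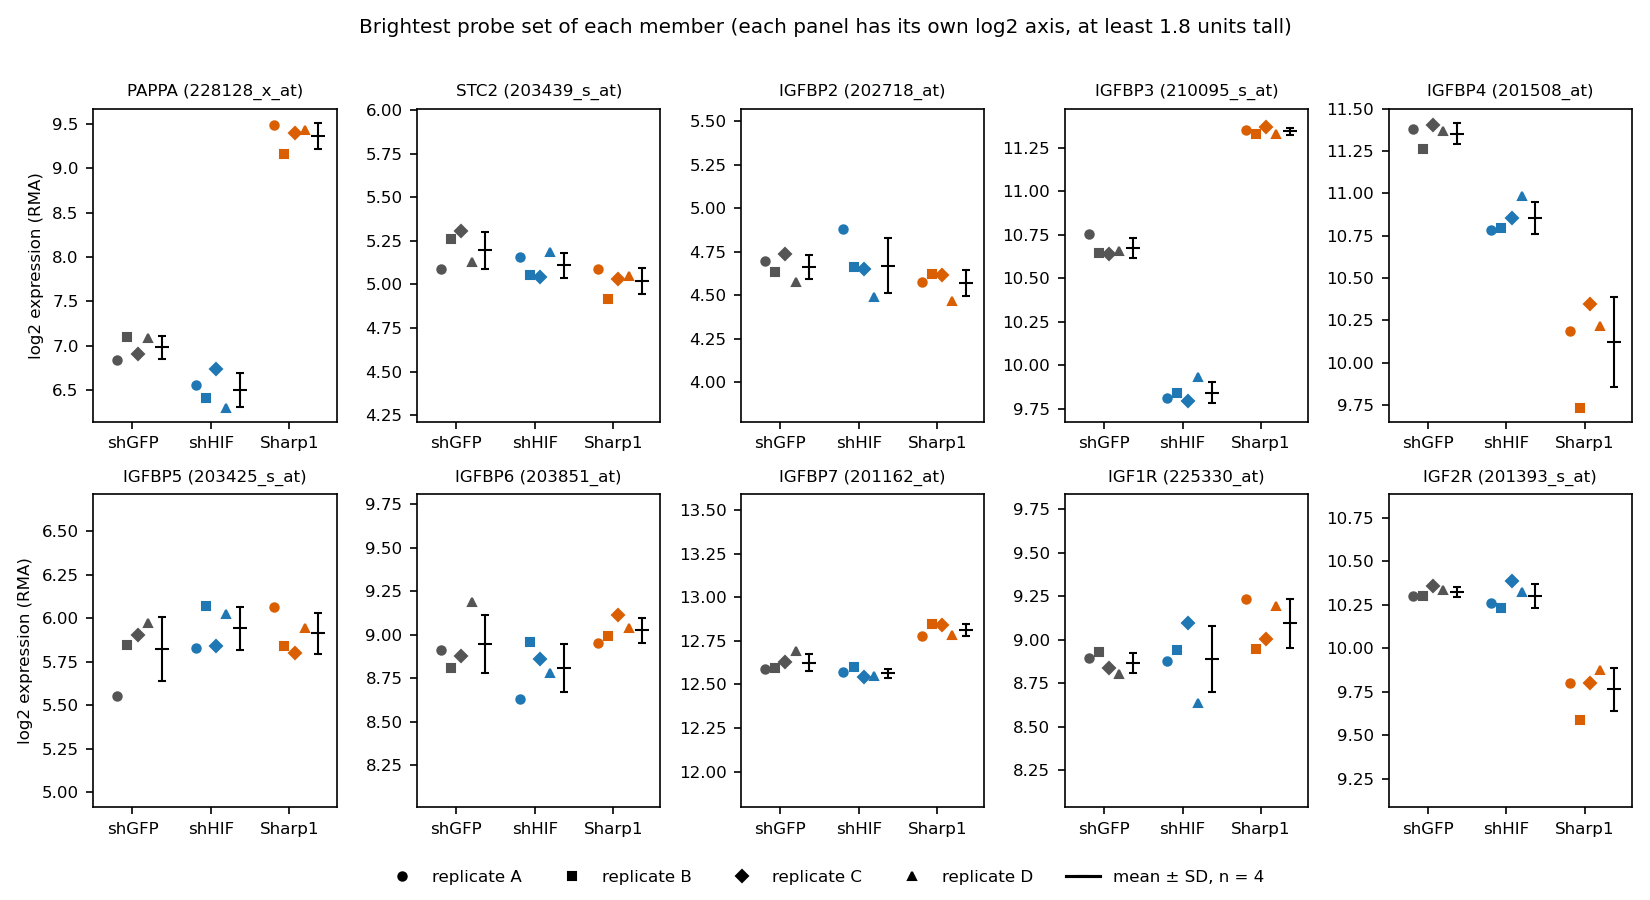
Log2 expression of the brightest probe set of each of the 10 members (vertical axes, 1 panel per gene, each with its own range) by group, with a symbol per replicate array and the mean ± SD (n = 4). PAPPA and IGFBP3 are highest in Sharp1 and lowest in shHIF cells, IGFBP4 is lowest in Sharp1 cells, and IGF2R is lower in Sharp1 cells than in both others.

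IGF1R, the signalling receptor, was not called in HIF-depleted cells. The control arrays of 225330_at read 8.90, 8.93, 8.84 and 8.80, the shHIF arrays 8.88, 8.94, 9.10 and 8.64, and the Sharp1 arrays 9.23, 8.95, 9.00 and 9.19. Control and shHIF overlapped (difference 0.02, SE 0.08; limma, adjusted p = 0.887). On 225330_at Sharp1 arrays stood just above control, by 0.23 (SE 0.08), 1.17-fold. The other probe sets did not share this rise. Their Sharp1 differences were 0.08 on 203627_at, -0.04 on 203628_at, -0.02 on 208441_at and -0.08 on 243358_at, all with overlapping groups. Of the other 4 probe sets none was called in shHIF cells. Probe set 203627_at came nearest in shHIF cells, with a difference of 0.17 (SE 0.06, adjusted p = 0.0655) and groups that did not overlap.

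IGF2R, which removes IGF2, read lower in Sharp1 cells and was not called in HIF-depleted cells. On 201393_s_at the control arrays read 10.30, 10.30, 10.36 and 10.33, the shHIF arrays 10.26, 10.23, 10.39 and 10.32, and the Sharp1 arrays 9.80, 9.59, 9.80 and 9.88. The shHIF values enclosed the control values, and the Sharp1 values lay below both. Sharp1 cells read lower than control by a difference of -0.56 (SE 0.05), at 67.9% of its level, and the difference was -0.50 without Sharp1 array B. On 201392_s_at Sharp1 cells stood at 75.1% of control. The shHIF differences of these probe sets were -0.02 (SE 0.05; limma, adjusted p = 0.834) and 0.06 (adjusted p = 0.623). The dim probe set 1569052_at read 4.98, 4.69 and 4.60, with overlapping groups. IGF2R is the member whose promoter window holds the 3 CACGTG copies printed above, and their part in these values was not tested.

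The members were then counted together. In shHIF against control 7 of 35 member probe sets were called, 0 higher and 7 lower, where 22.2% of all probe sets were called (10.7% higher and 11.5% lower). Without regard to direction, the share called is near the background. By direction it is not, with 0 of 35 higher against 10.7% and 7 of 35 lower against 11.5%. The split by direction was not tested. The 7 were 3 of PAPPA, 2 of IGFBP3 and 1 each of IGFBP4 and IGFBP7. Groups did not overlap for 8 of 35, against 22.3% of all probe sets, and the median difference was -0.07, against 0.02 over all. At an unadjusted p under 0.05 there was 1 higher and there were 9 lower. The share of all probe sets past that threshold was not computed, so nothing is read from these counts. Without Sharp1 array B the count was also 7, and without shHIF arrays A and D together it was 7. Of the 21 probe sets whose identifiers do not end in _x_at or _s_at 3 were called. The share called among all probe sets without those endings was not computed.

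In Sharp1 against control, the comparison from which the family was picked, 18 of 35 were called, 14 higher and 4 lower, beside 18.1% of all probe sets (9.82% higher and 8.26% lower). Of the 14 higher, 8 are probe sets of PAPPA, the gene whose higher signal was already seen when the family was chosen. These counts are given only beside the background, and nothing is read from them. The groups did not overlap for 19 of 35, beside 21.6% of all. The count of calls was 17 without Sharp1 array B, and 9 of the 21 probe sets left without those endings, for which no share over all probe sets was computed. In Sharp1 against shHIF 20 of 35 were called, 17 higher and 3 lower, beside 29.1% of all probe sets (15.3% higher and 13.8% lower). The groups did not overlap for 17, beside 28.0% of all. This comparison shares the Sharp1 arrays, and nothing is read from it either.

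**Figure D3:**
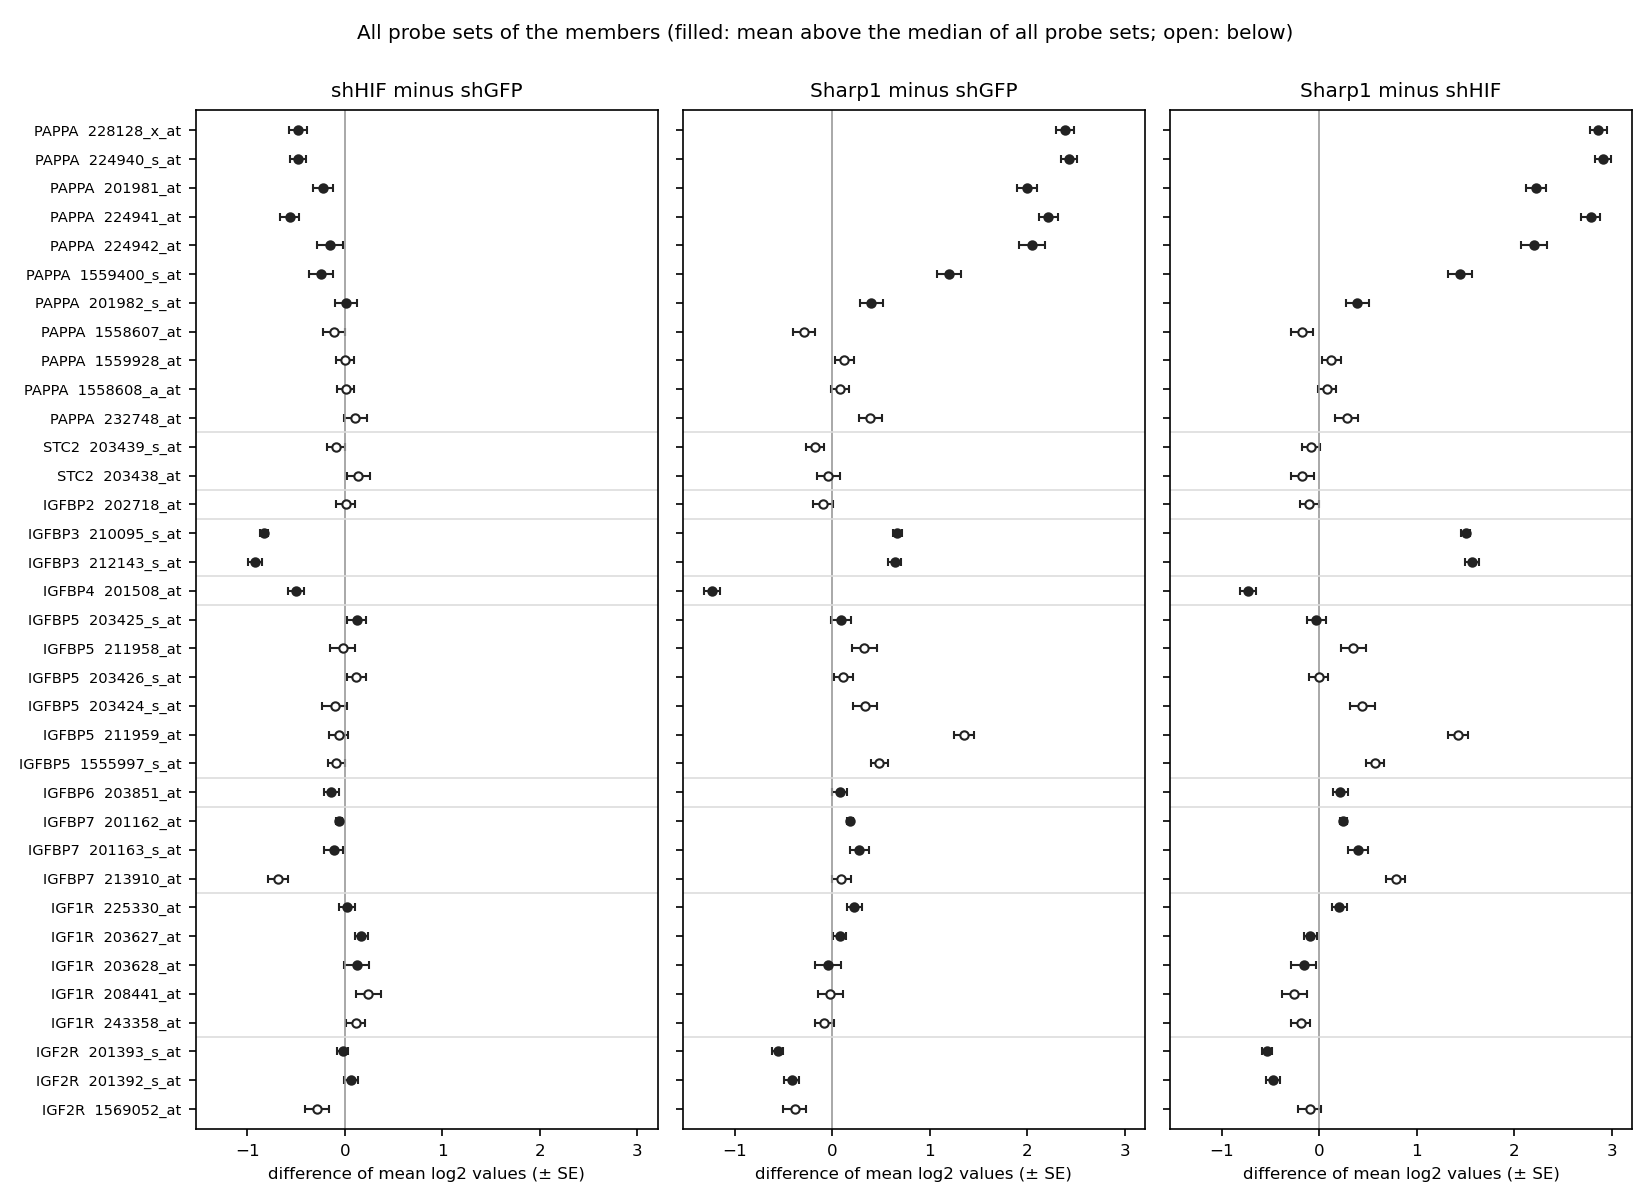
Differences of mean log2 values ± SE (horizontal axis) for all 35 member probe sets, in shHIF minus shGFP, Sharp1 minus shGFP and Sharp1 minus shHIF; filled points have a mean above the median of all probe sets and open points one below. The shHIF differences run from -0.92 to 0.24 and the Sharp1 differences from control from -1.23 to 2.43.

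The surrounding pathway was read on a list of 57 genes, of which 50 had a probe set of their own and 7 were not analysed here. Each gene was read by its brightest probe set. In HIF-depleted cells 9 of 50 rose and 14 fell at an adjusted p under 0.05 (limma), 46% against 28.3% of all genes (16.0% higher and 12.3% lower), and the median difference was -0.01 against 0.05 over all genes. In Sharp1 cells 11 rose and 11 fell, 44% against 24.7% of all genes (14.0% higher and 10.7% lower). Among the 39 genes that keep a probe set without those endings, 14 were called in Sharp1 cells. The share of all genes read in that way was not computed. The list was chosen with earlier results of these data known, and it was not tested as a set.

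Among ligands, IGF2 was not analysed here, and IGF1 read 5.91 in control with differences of 0.24 in shHIF (adjusted p = 0.107) and 0.11 in Sharp1 cells (adjusted p = 0.574; limma). The second pappalysin PAPPA2 was not called either, at 0.18 (adjusted p = 0.255) and 0.06 (adjusted p = 0.802). Of the 7 proteases and inhibitors read, PAPPA2 among them, 3 rose and 0 fell in shHIF cells, and 2 rose and 1 fell in Sharp1 cells. That is 42.9% called in each, beside 28.3% of all genes in shHIF and 24.7% in Sharp1 cells. HTRA1, a secreted serine protease that can cleave IGFBPs, rose by 0.48 (SE 0.05, adjusted p = 1.79e-07) and by 1.02 (SE 0.05, adjusted p = 3.3e-13). ADAMTS1, a secreted metalloprotease, rose by 0.24 (adjusted p = 0.00237) and by 0.92 (adjusted p = 8.03e-12). Its shHIF arrays overlapped control, with shHIF array D at 10.91. Unlike PAPPA, HTRA1 and ADAMTS1 were called higher in both groups.

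The CCN proteins and other relatives carry a domain like that of the IGFBPs. Of 8 read, 3 fell in shHIF cells, while in Sharp1 cells 3 rose and 1 fell. That is 37.5% and 50% called, beside 28.3% and 24.7% of all genes. CCN2, a matricellular protein, fell by 0.61 in shHIF cells (SE 0.04; limma, adjusted p = 3.14e-11) and rose by 0.35 in Sharp1 cells (adjusted p = 1.76e-07). In Sharp1 cells CCN3 fell by 2.10 (SE 0.10, adjusted p = 3.72e-14), whereas its shHIF difference was -0.13 (adjusted p = 0.395). ESM1, a secreted proteoglycan, rose by 0.42 in Sharp1 cells (adjusted p = 0.0236) from a dim 4.93. IGF2BP3, which binds IGF2 messenger RNA, fell by 0.41 and 0.75 in the shHIF and Sharp1 cells (adjusted p = 4.66e-07 and 1.58e-11).

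Downstream of the receptors, INSR, the insulin receptor, differed by -0.15 in shHIF cells (limma, adjusted p = 0.151) and in Sharp1 cells it fell by 0.42 (SE 0.07, adjusted p = 6.8e-05). IRS1, the docking protein of both receptors, differed by -0.04 in shHIF cells (adjusted p = 0.711) and fell by 0.52 in Sharp1 cells (adjusted p = 1.5e-06). These are the brightest probe sets. In shHIF cells 1 of the 3 IRS1 probe sets and 1 of the 5 INSR probe sets were called lower. GRB14, an adaptor that restrains the insulin receptor, fell by 1.35 in shHIF cells (SE 0.10, adjusted p = 3.95e-10) from 5.26, below the median probe set. SHC1, an adaptor leading to Ras, rose by 0.44 in Sharp1 cells (adjusted p = 4.67e-09). SOS1, a Ras exchange factor, rose by 0.47 in HIF-depleted cells when read by 212780_at (adjusted p = 3.38e-07) and fell by 0.20 in Sharp1 cells (adjusted p = 0.00637). Of its 5 probe sets 1 was called higher and 1 lower in shHIF cells. MTOR, the growth-controlling kinase, rose by 0.38 in shHIF cells (adjusted p = 0.000137) and by 0.20 in Sharp1 cells (adjusted p = 0.0339). Of its 2 probe sets 1 was called in each. FOXO1, a transcription factor that AKT keeps out of the nucleus, fell in both, by 0.54 (adjusted p = 2.44e-05) and 0.66 (adjusted p = 1.67e-06).

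**Figure D4:**
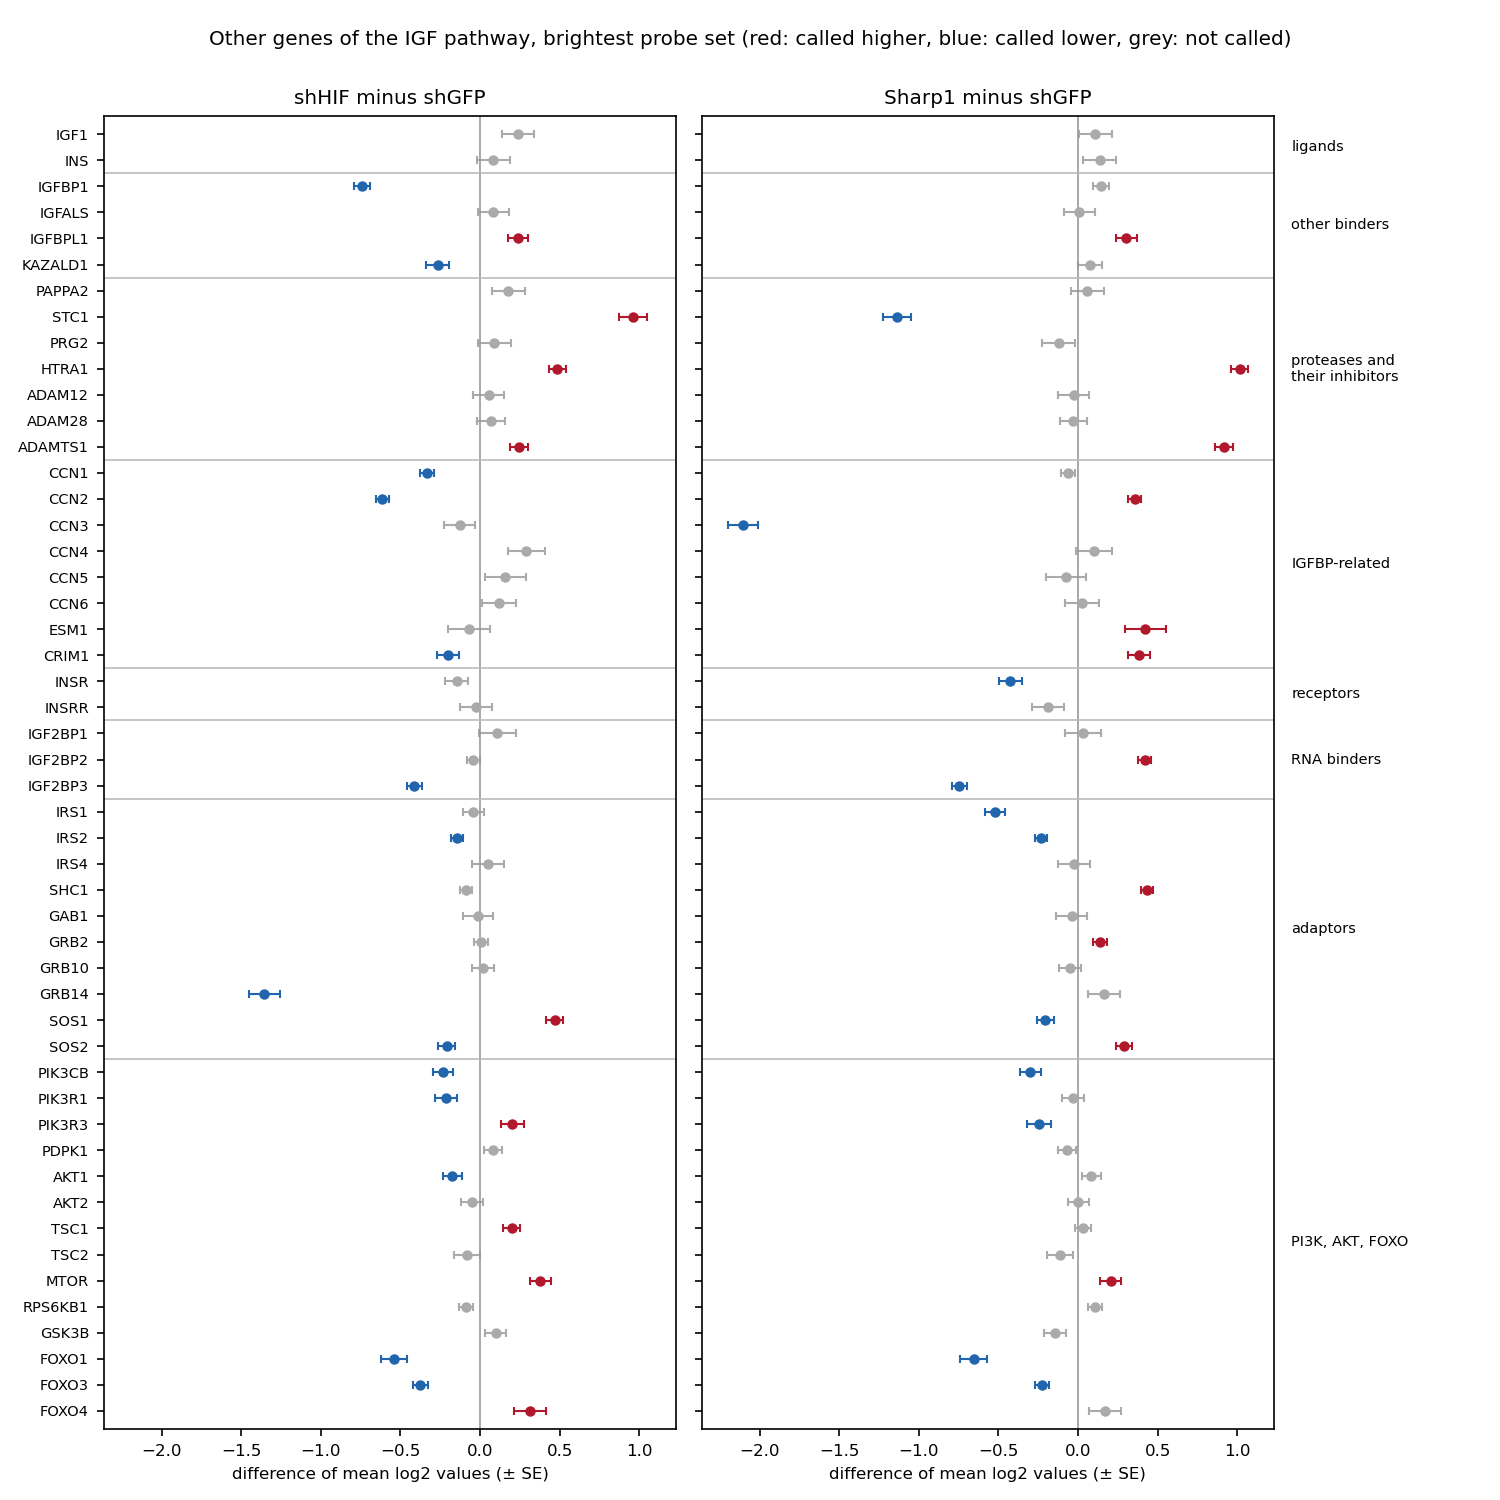
Differences of mean log2 values ± SE (horizontal axis) in shHIF and in Sharp1 cells against control for 50 other genes of the IGF pathway, by role, with genes called higher in red, called lower in blue and not called in grey. STC1 is called in opposite directions, at 0.96 and -1.14, and HTRA1 in the same direction, at 0.48 and 1.02.

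Set directly against HIF-depleted cells, Sharp1 cells had 17 of the 50 pathway genes higher and 10 lower, 54% against 36.1% of all genes (17.2% higher and 18.9% lower). The largest rises were GRB14 (1.52; limma, adjusted p = 1.61e-11), CCN2 (0.97, adjusted p = 2.02e-15), IGFBP1 (0.89, adjusted p = 2.42e-12) and ADAMTS1 (0.68, adjusted p = 1.03e-09). The largest falls were STC1 (-2.10, adjusted p = 5.52e-15), CCN3 (-1.98, adjusted p = 7.29e-14), SOS1 (-0.67, adjusted p = 3.44e-10) and IRS1 (-0.48, adjusted p = 2.76e-06).

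The genes most like PAPPA were sought by the Pearson correlation of their brightest probe sets with 228128_x_at over the 12 arrays, among 12582 genes above the median probe set. Since the arrays fall into 3 groups, such a correlation mainly reads the order of the group means, and it is given as a description. The highest were TENM2 (0.996), DCLK1 (0.995), PALLD (0.995), PCDH7 (0.995) and TNC (0.994). The lowest were ADSL (-0.996), VAMP8 (-0.995), RRAGD (-0.993), ABLIM1 (-0.993) and UPP1 (-0.993).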

How the data were processed

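Total RNA of 12 samples was labelled with biotin and hybridised to Affymetrix arrays. The deposited values are log2 expression per probe set, made with RMA per the submitters' processing notes (the sources used here do not give its version). Such values have no depth of counts, and precision is limited by the number of arrays. Control probe sets (62) were left out. Probe sets were named by the platform annotation: 41091 had 1 symbol, 1801 several and 11721 none, and 41043 matched a gene ID in the RefSeq table of GRCh38.p14. A gene was read by its brightest probe set.

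Group means were fitted with limma 3.58.1 (R 4.3.3; lmFit, eBayes with trend) over all 12 arrays. Benjamini-Hochberg adjustment ran over 54613 probe sets, and an adjusted p under 0.05 was a call. The fit was tested on simulated data. Alternatives left out arrays or probe sets, blocked on the replicate letter, centred or weighted arrays, or changed the fit. The members and lists were chosen with earlier results of these data known. Named genes were all members, up to 4 rises and 4 falls per comparison from the pathway list, IGF1, IGF2, IGFBP1, INSR, PAPPA2 and STC1 whatever their values, the targeted genes, and the 5 genes most and least correlated with PAPPA. For the members in Sharp1 cells differences are a description with no p printed, and counts past the threshold stand only beside those over all probe sets. RefSeq promoter windows were searched for motifs.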

Additional observations from a re-analysis of the deposited data

Results flagged for a closer look

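In each group of 4 arrays the highest and the lowest array were set against the others for all 35 member probe sets, which made 105 groups. An array was singled out where its gap to the nearest other, divided by the range of the group, was above Dixon's 95% critical value for a group of 4. Chance gives about 1 in 20, and 9 arrays were singled out. Sharp1 array B was low on PAPPA 224942_at (7.50, others 8.13 to 8.16), on IGFBP3 212143_s_at (9.11, others 9.46 to 9.50) and on IGF2R 201392_s_at (8.66, others 9.02 to 9.03). For IGFBP3, control array A was high on 210095_s_at (10.76, others 10.64 to 10.65) and control array D low on 212143_s_at (8.69, others 8.75 to 8.77). The IGFBP7 probe set 201163_s_at read 11.69 on shHIF array D (others 12.36 to 12.48). For IGF1R, control array D was low on 203628_at (7.29, others 7.54 to 7.57). On IGF1R 243358_at, a dim probe set, shHIF array D was high (4.43, others 4.22 to 4.23) and Sharp1 array D low (3.95, others 4.11 to 4.14). The 3 low values of Sharp1 array B stand beside its ribosomal RNA signal of 12.2, against 13.1 to 13.5 on the other arrays, whose part in them was not tested.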

How the results depend on the processing

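Counts of calls kept within 1.5 times of their value in 119 of 123 alternatives. The 4 exceptions all left out probe sets that can bind related transcripts, which leaves 21 member probe sets and 39 pathway genes. The member calls became 3 in shHIF against control, 9 in Sharp1 against control and 9 in Sharp1 against shHIF. The pathway calls in Sharp1 against control became 14. As fewer were counted, a lower count is not by itself a lower share. Leaving out 1 array gave 7 to 8, 15 to 19 and 18 to 21 member calls in the same order of comparisons, and 19 to 23, 19 to 23 and 24 to 28 pathway calls. Of 621 alternatives for single genes 584 kept direction and side of the threshold, 18 lost the call, 7 gained it and 12 turned direction. The 12 concern differences that were not called in the reported fit. Those in shHIF against control were not called under the alternative either. In shHIF against control these were STC2 at 0.14 and IGFBP5 at -0.021 without probe sets that can bind related transcripts, and IGFBP2 at -0.0047 with centred arrays and -0.0057 without shHIF arrays A and D. Leaving out 1 array gave -0.061 to 0.069 for IGFBP2, -0.047 to 0.106 for IGF1R and -0.051 to 0.0011 for IGF2R. In Sharp1 against shHIF IGFBP5 read 0.0034 with centred arrays and -0.080 to 0.014 when 1 array was left out. Without probe sets that can bind related transcripts it is read by 211958_at instead, at 0.35 with overlapping groups. The cause was not tested. After each group was centred, correlations between same-lettered arrays ran from -0.24 to 0.13, with 2 of 12 above 0.1. They were not set against arrays of different letters, so they cannot tell whether the letters mark pairs. The reported fit used no pairing. With the replicate block 7, 18 and 19 member probe sets and 22, 21 and 26 pathway genes were called in the 3 comparisons. Fitting 1 probe set per gene gives no count of member probe sets. The dim signal of STC2, IGFBP2 and most IGFBP5 probe sets limits what could be seen there.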
